A study of Saccharomyces cerevisiae with 12 samples.

Results

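Yeast cells that lack HEL2 were compared with and without methyl methanesulfonate (MMS) across all genes, to describe how the transcriptome of the deletion strain moves under this alkylating agent. The comparison takes 6 of the 12 libraries of the series, 3 treated against 3 untreated, and 6463 of 7109 gene identifiers held enough counts to be tested. The strain was in the BY4741 background, an auxotrophic haploid laboratory strain of mating type a, with the genotype given as a deletion of HEL2. Cultures grew in YPD, a rich medium with glucose, and the treated ones then received MMS for 90 min at 30 °C, at a dose that the labels do not state. The wild type, BY4741 with no deletion, was grown and treated alike, and its 6 libraries serve here only to show where the deletion strain differs. Replicates are labelled as biological, and the labels do not say how many clones of the deletion strain were used.

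MMS adds methyl groups to the bases of DNA and RNA, and ribosomes stall at methylated messengers. Ribosomes that run into a stalled one form collisions, which the ubiquitin ligase Hel2 marks so that the trapped ribosomes are split and the unfinished peptide is destroyed, a pathway called ribosome quality control. Stalled ribosomes can also activate the kinase Gcn2 with its partners Gcn1 and Gcn20. Gcn2 phosphorylates translation factor eIF2, which lowers general initiation and raises translation of the GCN4 messenger, and the Gcn4 protein then activates genes of amino acid synthesis. This branch is the integrated stress response of yeast. DNA damage, for its part, is read by the kinases Mec1 and Tel1, which act through Rad53 and Dun1 on nucleotide supply, repair and the cell cycle.

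At the deleted gene the counts followed the labels. HEL2 (YDR266C) in the deletion strain had 27, 19 and 20 counts without MMS and 35, 39 and 29 with MMS, and in the wild type its level was 51.8, 54.7 and 63.4 CPM without MMS and 28.6, 33.9 and 41.4 CPM with MMS, where CPM are counts per 1000000 reads of the scaled library. Read totals of the 6 deletion libraries ran from 44673122 to 53638964. The marker gene LEU2 (YCL018W) in the deletion strain had 21322, 24146 and 28105 counts without MMS and 19719, 20882 and 19374 with MMS against at most 0.862 CPM in any wild type library. The labels do not name the marker used for the deletion, and LEU2 is left out of the amino acid lists. Summed over 6 genes of a cells, levels ran from 2889 to 2986 CPM without and from 1908 to 2253 CPM with MMS, and 4 genes of alpha cells summed to 48 to 59.6 and 95.7 to 104.9 CPM, with none of these markers at 0.

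A few genes were high in a lone library, named here by its group and replicate. RSM26 had 418105 counts in the library hel2_2 against 2683 and 2513 in its replicates, and NUP192 had 456061 counts in hel2_1. The neighbouring open reading frames YER187W and YER188W showed the same, with 886931 counts of YER187W in hel2_MMS_1 and 1337240 counts of YER188W in hel2_3. RCY1 had 321602 counts in hel2_MMS_2. The large changes fitted for these genes rest on those libraries. Without hel2_2 the fall of RSM26 was -0.80 on the log2 scale and not -6.77 ± 2.00 (± SE here and below). The change of NUP192 was -0.85 without hel2_1 and -5.24 ± 1.56 with it, and both calls were lost with limma-voom. YER187W turned from 10.79 ± 3.39 to -0.64 without hel2_MMS_1, and YER188W did not pass (adjusted p = 0.0647). Over all genes, each library was also set against the mean of the other libraries of its group. The SD of this log2 deviation ran from 0.202 to 0.291 in the deletion libraries and reached 0.429 in WT_MMS_1. Without WT_MMS_1 the difference between strains described last passed for 2828 genes and not 2587. In all, 80 genes of the table had such a library in at least 1 of the 4 groups, and leaving them out of the fit moved the counts of called genes by less than 1.5 times.

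The response was broad. Of the 6463 genes, 4874 had an adjusted p (Benjamini-Hochberg) under 0.05 in the quasi-likelihood test of edgeR and are said to pass, which is 75.4% of those tested. Of these, 2535 were higher with MMS, or 39.2% of the genes tested, and 2339 were lower, or 36.2%. Any gene list must be read against these shares. Where library-size scaling moved the split of a list by over 10 percentage points, its counts are given beside the main ones. Scaling by library size alone, in place of the trimmed mean of M values (TMM), moved the median log2 fold change of all genes up by 0.55, from 0.06 to 0.61, and gave 3707 higher and 1275 lower genes. The share of higher genes among those called was then 74.4%, against 52% with TMM, and small changes below are therefore relative to the bulk of the transcripts. In bulk RNA, fewer cells of a kind and less RNA per cell cannot be told apart.

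Large changes ran in both directions. At 2-fold or more, 1231 genes rose (19.0%) and 1164 fell (18.0%), together 37.1% of genes tested. At 4-fold or more 369 genes rose (5.71%) and 449 fell (6.95%), at 8-fold 146 (2.26%) and 152 (2.35%), and at 16-fold 55 (0.851%) and 16 (0.248%). The treated and untreated libraries did not overlap for 5264 genes, or 81.4%. The median biological coefficient of variation between replicates was 12%, and replicate libraries differed from each other by more than counting noise, with a chi-square per degree of freedom of at least 63.6.

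**Figure D1:**
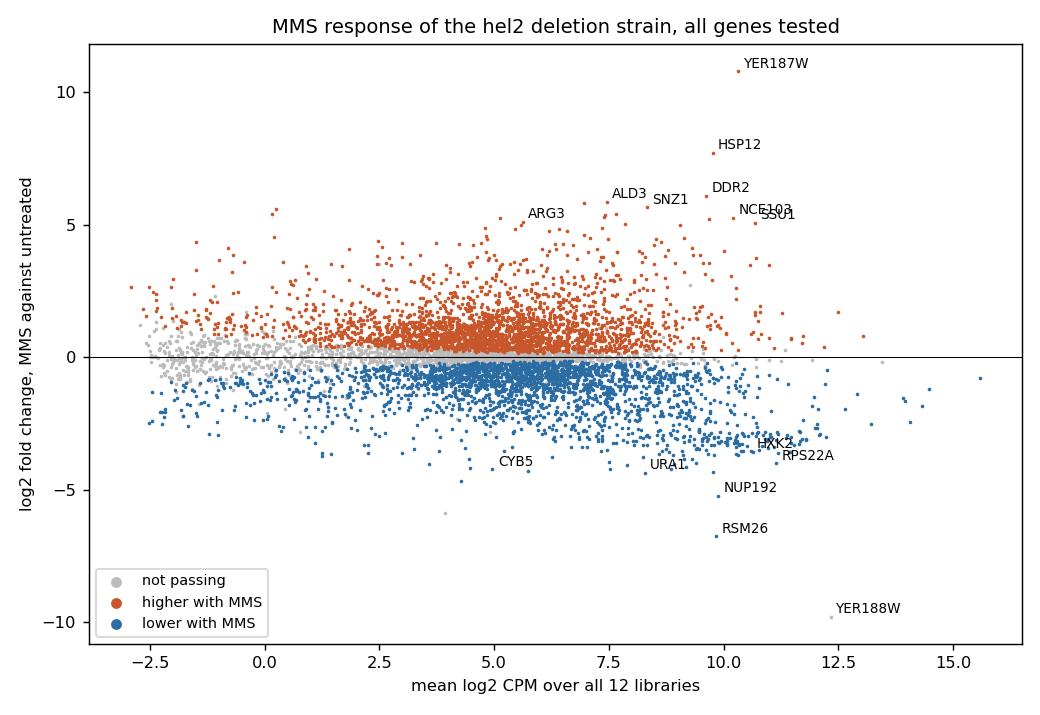
Change with MMS in the hel2 deletion strain (log2 fold change, vertical axis) against the mean log2 CPM over all 12 libraries (horizontal axis), with a point for each of the 6463 genes tested. Points in orange and blue passed with a rise or a fall, and grey points did not pass. HSP12 lies at 7.72, and the extreme points YER187W, YER188W, RSM26 and NUP192 each rest on a lone library.

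At a mean log2 CPM of 4 or more, the largest rises were led by HSP12 (YFL014W), a small membrane-protecting stress protein. Its levels were 17.3, 14 and 13.6 CPM without MMS and 3366, 2849 and 3234 CPM with MMS, a log2 fold change of 7.72 ± 0.19 (SE, n = 3 per group, adjusted p = 2.51e-12). DDR2 (YOL052C-A), named for its induction by DNA damage and by many other stresses, stood at 26.9, 35.2 and 32.6 CPM without MMS and 2409, 1914 and 2141 CPM with MMS. Each treated library lay far above each untreated one for both genes. ALD3 (YMR169C), a cytosolic aldehyde dehydrogenase, was at 8.75, 10.2 and 9.92 CPM without MMS and 631, 465 and 573 CPM with MMS, and rose by 5.86 ± 0.26. SOL4 (YGR248W), a 6-phosphogluconolactonase, rose by 5.81 ± 0.17, HSP42 (YDR171W), a small heat shock protein that gathers misfolded proteins, by 5.41 ± 0.20, and DCS2 (YOR173W), an inhibitor of the messenger cap scavenger Dcs1, by 5.35 ± 0.12. Others among the 15 largest rises were the carbonic anhydrase NCE103 (YNL036W) at 5.27 ± 0.30, the sulfite pump SSU1 (YPL092W) at 5.07 ± 0.17, the carboxypeptidase Y inhibitor TFS1 (YLR178C) at 5.22 ± 0.19, the transaldolase NQM1 at 4.99 ± 0.12, and RTC3 and MSC1, whose functions are not established, at 5.29 ± 0.11 and 5.01 ± 0.14. NCE103 and SSU1 were at 93.8, 94.7 and 105 CPM without MMS and 3830, 3463 and 4007 CPM with MMS, and at 103, 129.5 and 132 CPM without MMS and 4223, 4101 and 3908 CPM with MMS.

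The largest falls that did not rest on a lone library spanned genes of several roles. URA1 (YKL216W), the dihydroorotate dehydrogenase of pyrimidine synthesis, stood at 455, 435 and 498 CPM without MMS and 22.2, 24.2 and 21.3 CPM with MMS, and fell by 4.36 ± 0.11 (adjusted p = 3.49e-12). OLE1 (YGL055W), the fatty acid desaturase of yeast, was at 779, 1016 and 870.0 CPM without MMS and 54, 48.9 and 46.7 CPM with MMS, and fell by 4.15 ± 0.16. CYB5 (YNL111C), the cytochrome b5 that gives electrons to sterol and fatty acid enzymes, fell by 4.24 ± 0.18. Treated libraries were below untreated ones throughout for these genes. SFG1 (YOR315W), a putative transcription factor of pseudohyphal growth, was at 111, 91.9 and 97.6 CPM without MMS and 5.11, 5.55 and 4.6 CPM with MMS, a fall of 4.30 ± 0.10. ANB1 (YJR047C), the form of elongation factor eIF5A made without oxygen, fell by 4.19 ± 0.18, and INA1 (YLR413W), of unknown function, by 4.01 ± 0.18. RPL9A (YGL147C), RPS26B and RPS22A (YJL190C), all ribosomal protein genes with close copies, fell by 4.35 ± 0.16, 4.04 ± 0.24 and 4.01 ± 0.12.

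Genes of amino acid synthesis rose for some amino acids and fell for others. Arginine showed it most plainly, since all 10 rose (the median log2 fold change was 3.30 against 1.68 in the wild type). ARG3 (YJL088W), the ornithine carbamoyltransferase, was at 4.88, 4.39 and 4.82 CPM without MMS and 169, 163 and 152 CPM with MMS, and rose by 5.10 ± 0.09 (adjusted p = 9.29e-13). ARG1 (YOL058W), argininosuccinate synthase, was at 69.1, 75.7 and 88.1 CPM without MMS and 1789, 1790 and 1607 CPM with MMS. ARG4 (YHR018C), argininosuccinate lyase, was at 134, 138 and 153 CPM without MMS and 2020, 2051 and 2007 CPM with MMS. The treated libraries of all these genes stood close together and far above the untreated ones. CPA1, the glutaminase subunit of the carbamoyl phosphate synthetase for arginine, rose by 2.63 ± 0.12, ARG56 (ARG5,6), which encodes a precursor of enzymes in the ornithine branch, by 3.47 ± 0.10, ARG7 by 3.13 ± 0.08, and the mitochondrial ornithine exporter ORT1 by 2.39 ± 0.07. The smallest rises of the list were 0.79 ± 0.08 for ARG8 and 1.15 ± 0.08 for ARG2. SIP4, a neighbour of ARG3 on the chromosome and an activator of gluconeogenic genes, rose by 3.78 ± 0.14, and the strand setting of the counting is not given in the sources used here.

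The histidine and lysine pathways rose in most members. Of 7 histidine genes 6 rose and 1 fell (median 1.05, or 6 higher and 0 lower by library size). HIS5 (YIL116W), a transaminase of the pathway, was at 147, 146 and 151 CPM without MMS and 872, 857 and 871 CPM with MMS, HIS4 rose by 1.73 ± 0.09, HIS3 by 1.39 ± 0.06 and HIS7 by 1.05 ± 0.08. The fall of HIS6 by 0.47 ± 0.07 became 0.09, which did not pass, under library-size scaling. Of 8 lysine genes 6 rose, 1 fell and 1 did not pass (median 1.31). LYS1 (YIR034C), the last enzyme of the pathway, was at 71.6, 79.2 and 84.3 CPM without MMS and 1062, 1136 and 1093 CPM with MMS, a rise of 3.81 ± 0.10. LYS20, a homocitrate synthase, rose by 1.52 ± 0.08, while LYS4, homoaconitase, fell by 1.32 ± 0.10.

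Aromatic, serine and sulfur amino acid genes were led by a few strong members. Of 14 aromatic genes 12 rose and 2 fell (median 0.91), among them ARO3, which opens the pathway, by 2.19 ± 0.07, ARO9, a transaminase, by 2.06 ± 0.10 and TRP3 by 1.53 ± 0.09. Of 12 genes for threonine, serine and asparagine, 7 rose, 3 fell and 2 did not pass (median 0.34, or 9 higher and 1 lower by library size). SER3 (YER081W), the 3-phosphoglycerate dehydrogenase that opens serine synthesis, was at 37.9, 38.3 and 35.7 CPM without MMS and 448, 476 and 457 CPM with MMS, and rose by 3.63 ± 0.07 (adjusted p = 9.29e-13). HOM3, aspartate kinase, rose by 2.01 ± 0.11, and SER2, the phosphatase that ends serine synthesis, fell by 1.51 ± 0.07. Of 17 genes of methionine and sulfur metabolism 9 rose, 7 fell and 1 did not pass (median 0.33, or 10 higher and 5 lower by library size). STR3 (YGL184C), cystathionine beta-lyase, was at 5.68, 7.52 and 7.4 CPM without MMS and 93, 83.7 and 87.7 CPM with MMS, and STR2, which makes cystathionine, rose by 3.05 ± 0.12. SAM1 (YLR180W), an S-adenosylmethionine synthetase, was at 941, 1155 and 1148 CPM without MMS and 97.5, 98.6 and 93.1 CPM with MMS, a fall of 3.49 ± 0.12, and CYS3, which makes cysteine, fell by 1.09 ± 0.14.

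Other amino acid lists went down or split. Of 10 genes for branched-chain amino acids 3 rose, 6 fell and 1 did not pass (median -0.47), but 5 higher and 3 lower with library-size scaling (median 0.10). LEU4, an alpha-isopropylmalate synthase, rose by 2.18 ± 0.15, while its paralog LEU9 fell by 1.19 ± 0.09 and ILV5, the acetohydroxyacid reductoisomerase, by 1.52 ± 0.10. Of 7 genes for glutamate, glutamine and proline 2 rose and 5 fell (median -1.30, or 2 higher and 3 lower by library size). GDH1, the main glutamate dehydrogenase, fell by 1.81 ± 0.09, its paralog GDH3 rose by 1.05 ± 0.15, and PRO1 and PRO3 of proline synthesis fell by 1.55 ± 0.10 and 1.33 ± 0.13.

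Vitamin B6 genes held the largest positive difference between strains at this level of expression. SNZ1 (YMR096W) and SNO1 (YMR095C), neighbours that encode the subunits of pyridoxal phosphate synthase, rose by 5.65 ± 0.12 (adjusted p = 1.54e-12) and 3.65 ± 0.17. SNZ1 was at 24.5, 22.1 and 24.3 CPM without MMS and 1239, 1173 and 1143 CPM with MMS, and SNO1 at 7.73, 8.02 and 7.97 CPM without MMS and 105, 96.4 and 96.1 CPM with MMS. In the wild type SNZ1 was at 22.1, 23.6 and 19.8 CPM without MMS and 70.6, 53.7 and 60.8 CPM with MMS. The rise was thus far larger in the deletion strain, and the difference of the MMS effects was 4.15 ± 0.15 (adjusted p = 7.15e-09). PDX3, the oxidase that ends the salvage route, rose by 1.59 ± 0.07. Of 7 genes in the list 3 rose and 4 did not pass. The close relatives of SNZ1 moved far less, SNZ2 having a fitted change of -0.17, or 0.40 with library-size scaling, where it passed (adjusted p = 0.0122), and SNZ3 one of -0.10, or 0.45 by library size, neither of which passed. MTG1, a neighbour of SNZ1 on the chromosome that encodes a mitochondrial GTPase, rose by 3.14 ± 0.15 here and had a fitted change of 0.15 ± 0.15 in the wild type.

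Among regulators of the integrated stress response more fell than rose. Of 18 genes 2 rose, 14 fell and 2 did not pass (median -0.81, or 4 higher and 8 lower by library size). GCN4 (YEL009C) was at 1080, 960.2 and 1113 CPM without MMS and 574, 565 and 549 CPM with MMS, a fall of 0.90 ± 0.09 (adjusted p = 5.47e-07). GCN2 (YDR283C), the kinase, was at 64, 56.2 and 61.1 CPM without MMS and 64.7, 62.6 and 65 CPM with MMS. Its fitted change was 0.09 ± 0.10 (adjusted p = 0.454), but 0.64 under library-size scaling, where it passed. PCL5 (YHR071W), the cyclin that promotes the turnover of Gcn4 and is itself a Gcn4 target, was at 119, 108 and 125 CPM without MMS and 698, 706 and 728 CPM with MMS, a rise of 2.60 ± 0.08. MBF1, a coactivator of Gcn4, rose by 1.19 ± 0.09. GCD11, the gamma subunit of eIF2, fell by 2.10 ± 0.07 and GCD10, a subunit of a tRNA methyltransferase first found through its effect on GCN4 translation, by 1.73 ± 0.12.

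Genes of ribosome quality control rose and fell in shares near those of all genes tested, 39.2% and 36.2%, with a balance that depends on the scaling. Of 25 genes 9 rose, 8 fell and 8 did not pass (median 0.13, or 17 higher and 5 lower by library size). UFD1, a cofactor of the Cdc48 segregase, rose by 2.10 ± 0.10, the nuclease CUE2, which cuts messengers at collided ribosomes, by 1.02 ± 0.16, and RQT4, of the helicase complex that takes such ribosomes apart, by 1.06 ± 0.15. The difference for RQT4 from the wild type was 1.39 ± 0.21. ASC1 (YMR116C), the ribosomal scaffold at which Hel2 acts, was at 3747, 4821 and 4690 CPM without MMS and 689.8, 643 and 578 CPM with MMS, and NEW1, a translation factor of termination and recycling, fell by 2.15 ± 0.09. ASC1 moved down with the ribosomal proteins described below, of which it is a stoichiometric partner.

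**Figure D2:**
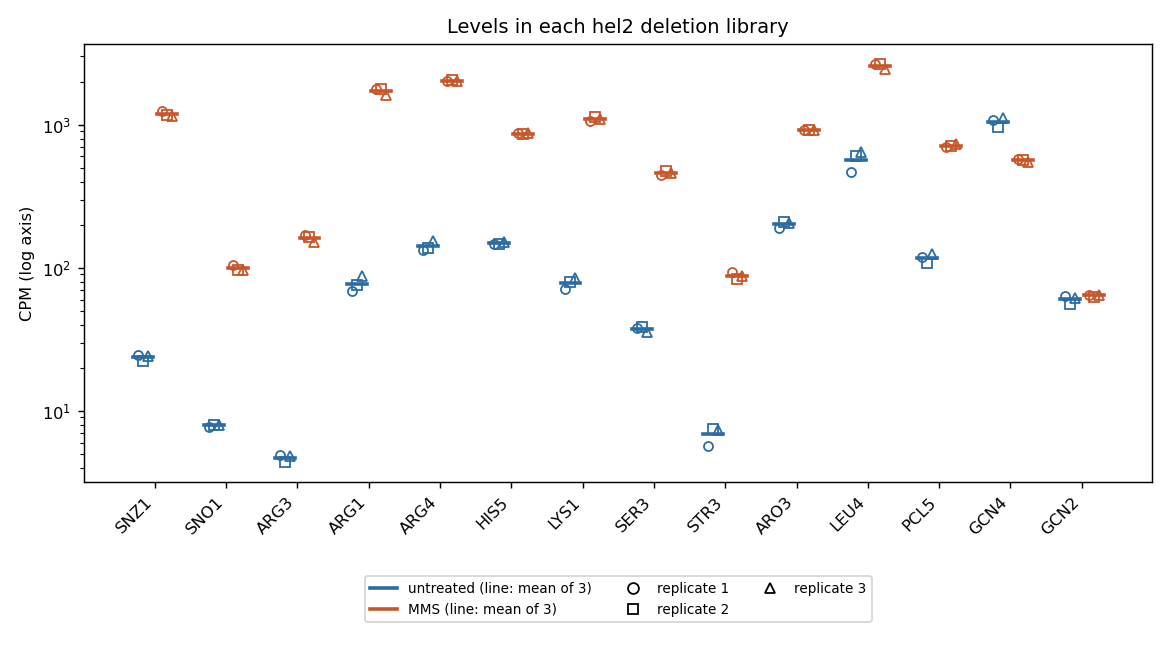
Levels of 14 genes in each library of the hel2 deletion strain, in CPM on a log axis. Values without MMS are in blue and those with MMS in orange, with a symbol per replicate and a line at the mean of 3. PCL5, GCN4 and GCN2 are from the list of integrated stress response regulators, and the others from the amino acid and vitamin B6 lists. The genes were picked by hand, and members of these lists that fell, such as HIS6, LYS4, SER2 and SAM1, are not shown. The 12 genes from SNZ1 to PCL5 are higher in every treated library, GCN4 is lower, and GCN2 has a fitted change of 0.09 that did not pass.

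Among genes of amino acid uptake and nitrogen use, more rose than fell. Of 20 permeases 13 rose, 4 fell and 3 did not pass (median 0.65, or 18 higher and 2 lower by library size). AGP1 (YCL025C), a broad permease, was at 56.5, 62.6 and 56.4 CPM without MMS and 428, 439 and 414 CPM with MMS, GAP1, the general permease, rose by 2.08 ± 0.24, and AGP2 by 1.95 ± 0.16, while MMP1, for S-methylmethionine, fell by 1.44 ± 0.13. Of 21 genes under nitrogen catabolite control 15 rose, 3 fell and 3 did not pass (median 0.88, or 17 higher and 0 lower by library size). UGA2, which breaks down gamma-aminobutyrate, rose by 2.81 ± 0.12, the urea transporter DUR3 by 2.05 ± 0.16, and PUT1, proline oxidase, by 1.71 ± 0.12.

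Most genes of nucleotide synthesis fell, with the lowest median for guanine nucleotides. Of 9 genes 1 rose and 8 fell (median -3.20 against -1.80 in the wild type). IMD4 (YML056C), an inosine monophosphate dehydrogenase with close copies, was at 661, 848 and 799.6 CPM without MMS and 63.8, 61.3 and 53.6 CPM with MMS, and IMD2, of the same family, fell by 3.41 ± 0.13. AAH1, adenine deaminase, fell by 3.53 ± 0.10, while GUD1, guanine deaminase, rose by 1.82 ± 0.11. Of 16 pyrimidine genes 2 rose and 14 fell (median -1.11), with URA7, the main CTP synthase, at -4.08 and FUR1, uracil phosphoribosyltransferase, at -3.96. URA10 (YMR271C), the minor orotate phosphoribosyltransferase, was at 6.33, 7.1 and 7.25 CPM without MMS and 36.3, 36.5 and 36.9 CPM with MMS. De novo purine genes were milder, since of 13 genes 2 rose, 9 fell and 2 did not pass (median -0.86, or 4 higher and 8 lower by library size). ADE6, ADE57 (ADE5,7) and ADE13 fell by 1.72 ± 0.10, 1.63 ± 0.12 and 1.60 ± 0.07, and ADE2 rose by 0.82 ± 0.06.

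The general stress genes rose as a body. Of 23 markers of this response all 23 rose (median 3.73), and the smallest rise was that of CTT1, cytosolic catalase, at 1.34 ± 0.20. Genes of storage carbohydrates moved with them. Of 8 trehalose genes all 8 rose (median 2.35), led by TSL1 (YML100W), a subunit of the trehalose synthase complex, at 93.2, 99 and 106 CPM without MMS and 1399, 1458 and 1443 CPM with MMS. The neutral trehalase NTH1 rose by 3.53 ± 0.09 and the synthase TPS1 by 3.07 ± 0.13, so genes of making and of breaking down rose together. Of 11 glycogen genes 10 rose and 1 fell (median 2.12). Glycogen phosphorylase, GPH1 (YPR160W), was at 24, 27.4 and 32.5 CPM without MMS and 469, 429 and 430.0 CPM with MMS, the debranching enzyme GDB1 rose by 3.27 ± 0.14 and glycogen synthase GSY2 by 3.09 ± 0.13. The fall of GAC1, a phosphatase subunit, by 0.36 ± 0.11 became 0.20, which did not pass, under library-size scaling.

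More genes of glycolysis fell than rose. Of 16 genes 4 rose, 11 fell and 1 did not pass (median -0.88, or 5 higher and 8 lower by library size). ENO2 (YHR174W), enolase, was at 21690, 30630 and 28630 CPM without MMS and 7560, 7608 and 7135 CPM with MMS, and CDC19 (YAL038W), the main pyruvate kinase, at 4780, 5932 and 5528 CPM without MMS and 1544, 1528 and 1475 CPM with MMS. For both, every treated library lay far below every untreated one. FBA1, aldolase, fell by 1.65 ± 0.11. TDH3 (YGR192C) took 3.87 to 5.41% of all counts without and 3.88 to 4.11% with MMS, and its fall of 0.80 ± 0.17 became -0.23 and did not pass under library-size scaling. TDH2 did not pass, with -0.17, but under library-size scaling it passed with 0.40. Of 11 genes for pyruvate decarboxylases and alcohol dehydrogenases, 2 rose, 7 fell and 2 did not pass (median -0.56), against 3 higher and 4 lower with library-size scaling (median 0.01). PDC1 (YLR044C), the main pyruvate decarboxylase, was at 20340, 24790 and 23770 CPM without MMS and 4298, 4349 and 3846 CPM with MMS, and fell by 2.46 ± 0.13. ADH1 (YOL086C), the alcohol dehydrogenase of fermentation, fell by 1.55 ± 0.15, and ADH5 rose by 2.40 ± 0.13.

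Genes of sugar entry and carbon control held large changes in both directions. HXK2 (YGL253W), the main hexokinase in glucose and a part of glucose repression, was at 2310, 2414 and 2652 CPM without MMS and 201, 217 and 207 CPM with MMS. GLK1 (YCL040W), glucokinase, was at 261, 350.2 and 327 CPM without MMS and 3489, 3518 and 3402 CPM with MMS, and HXK1, the other hexokinase, rose by 1.98 ± 0.11. Of 13 genes of hexokinases and glucose repression 6 rose, 5 fell and 2 did not pass (median 0.20, or 8 higher and 1 lower by library size). Of 18 hexose transporters and sensors 6 rose, 4 fell and 8 did not pass (median 0.02, or 12 higher and 4 lower by library size). HXT5 (YHR096C), a transporter of slow growing cells, was at 15.1, 16.6 and 15.3 CPM without MMS and 326, 280.5 and 287 CPM with MMS, HXT2 (YMR011W) at 634, 707 and 665 CPM without MMS and 61.6, 57.6 and 54.7 CPM with MMS, and HXT4 fell by 1.99 ± 0.14. Of 12 genes of gluconeogenesis and the glyoxylate cycle all 12 rose (median 1.02), among them PCK1, phosphoenolpyruvate carboxykinase, by 2.09 ± 0.11 and IDP2, cytosolic isocitrate dehydrogenase, by 1.87 ± 0.15. Of 5 aldehyde dehydrogenases 4 rose and 1 fell (median 2.30). ALD4, the mitochondrial form, rose by 2.98 ± 0.19 and ALD2 by 2.30 ± 0.11, while ALD6, the main cytosolic form in glucose, fell by 2.12 ± 0.12. Of 6 galactose genes 2 rose, 1 fell and 3 did not pass (median 0.10, or 6 higher and 0 lower by library size), GAL3 rising by 1.32 ± 0.13 and GAL7 by 1.33 ± 0.23.

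The pentose phosphate pathway was split into members that rose and members that fell, since of 12 genes 6 rose and 6 fell (median 0.25). RKI1 (YOR095C), ribose-5-phosphate ketol-isomerase, which has no paralog in the list, was at 117, 108 and 120.3 CPM without MMS and 8.52, 8.22 and 8.26 CPM with MMS, a fall of 3.79 ± 0.11. Members of some pairs of paralogous enzymes moved apart. The 12 pairs shown were picked after their values were seen, each for a member that rose, so they do not tell how often this happens, and other pairs, such as SSB1 and SSB2 or IMD2 and IMD4, moved together. Reads that match both members could stand in either count, which the sources used here do not settle. For 6-phosphogluconate dehydrogenase, GND2 (YGR256W) was at 8.49, 9.5 and 10.3 CPM without MMS and 126, 118 and 126 CPM with MMS, and GND1 (YHR183W) at 762, 1063 and 951 CPM without MMS and 175, 186 and 184 CPM with MMS. For transketolase, TKL2 (YBR117C) was at 14.2, 18.1 and 17.9 CPM without MMS and 457, 356 and 404 CPM with MMS, and TKL1 (YPR074C) at 1365, 1867 and 1674 CPM without MMS and 364, 371 and 359.5 CPM with MMS. The members of each pair thus moved in opposite directions, with no overlap of treated and untreated libraries in any of these 4 genes. SOL4, NQM1, GPM2, PYK2 and TDH1 rose by 5.81 ± 0.17, 4.99 ± 0.12, 3.06 ± 0.14, 1.55 ± 0.12 and 1.37 ± 0.16. Their partners SOL3, TAL1, GPM1, CDC19 and TDH3 fell by 0.71 ± 0.10, 1.02 ± 0.08, 1.82 ± 0.10, 1.84 ± 0.10 and 0.80 ± 0.17. The cytochrome c forms CYC7 and CYC1 changed by 4.38 ± 0.24 and -2.54 ± 0.10, and the orotate phosphoribosyltransferases URA10 and URA5 by 2.41 ± 0.11 and -2.46 ± 0.09. For Hsp90, HSP82 rose by 2.12 ± 0.14 and HSC82 fell by 0.64 ± 0.09, a call lost under library-size scaling. The peroxiredoxin TSA2 rose by 4.51 ± 0.15, and its partner TSA1 also rose, by 0.40 ± 0.12.

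**Figure D3:**
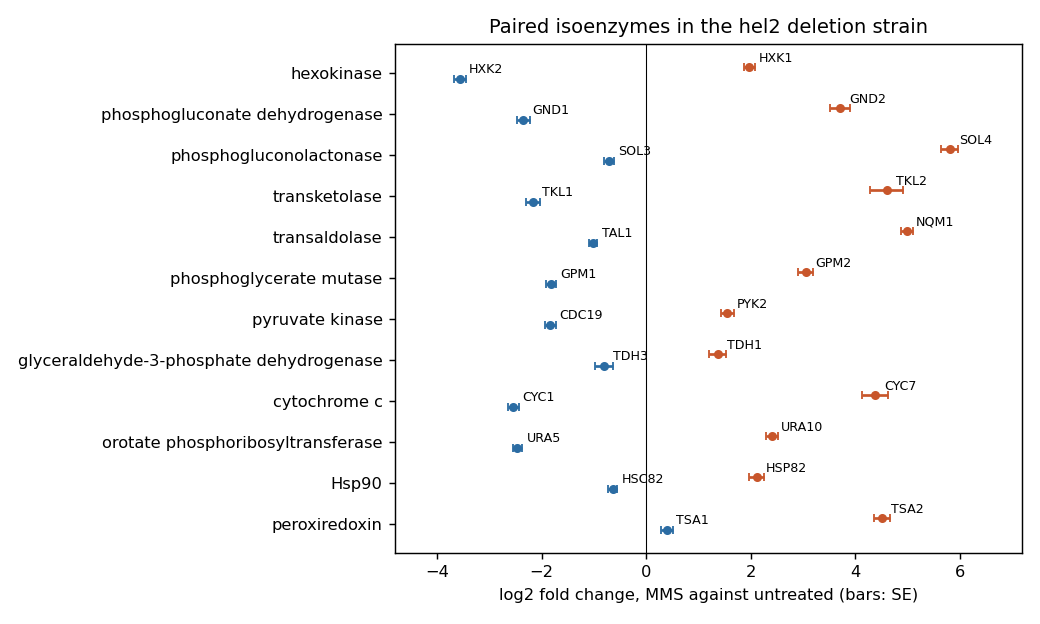
Log2 fold change with MMS, with SE, for 12 pairs of paralogous enzymes in the hel2 deletion strain, with 3 libraries per group. The member in orange rises from 1.37 for TDH1 to 5.81 for SOL4, and every partner in blue lies below 0 apart from TSA1 at 0.40.

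Chaperone genes divided. Of 8 genes for disaggregases, small heat shock proteins and sequestrases, all 8 rose (median 3.66). HSP26 (YBR072W) was at 53.5, 38 and 59.1 CPM without MMS and 1187, 1021 and 1069 CPM with MMS, and HSP31, a glyoxalase of the DJ-1 family, rose by 3.91 ± 0.11. Of 16 Hsp70 and Hsp40 genes 8 rose, 7 fell and 1 did not pass (median 0.12). SSA4 (YER103W), the stress-induced Hsp70, was at 31, 35 and 37.5 CPM without MMS and 569.9, 510.1 and 549 CPM with MMS, and SSB2 (YNL209W), an Hsp70 that binds nascent chains on ribosomes, at 3800, 4712 and 4985 CPM without MMS and 478, 459.9 and 418 CPM with MMS. SSB1, its near copy, fell by 3.59 ± 0.14, and ZUO1, the ribosome-bound Hsp40, by 1.88 ± 0.08. The ribosome-bound members thus fell while the cytosolic stress form rose. Of 10 genes for Hsp90 and its partners 5 rose, 4 fell and 1 did not pass (median 0.38, or 6 higher and 0 lower by library size), AHA1 rising by 1.29 ± 0.07 and STI1 by 1.25 ± 0.14. Of 17 genes for folding in the endoplasmic reticulum 6 rose, 7 fell and 4 did not pass (median -0.12), but 10 higher and 2 lower with library-size scaling (median 0.44). ERO1, the oxidase of disulfide formation, rose by 1.46 ± 0.09, while the translocon genes SEC63 and SEC61 fell by 1.32 ± 0.09 and 0.83 ± 0.12.

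Most genes of protein breakdown rose. Of 34 genes of the proteasome and its activator RPN4 all 34 rose (median 1.21), from 0.55 to 1.70. RPT4 (YOR259C), an ATPase of the proteasome cap, was at 102, 106 and 99.9 CPM without MMS and 313, 322 and 362 CPM with MMS, and PRE2 (YPR103W), a catalytic subunit, at 327, 326 and 359 CPM without MMS and 1019, 1084 and 1135 CPM with MMS. Of 37 autophagy genes 32 rose, 3 fell and 2 did not pass (median 1.46). ATG39 (YLR312C), the receptor for breakdown of the nuclear envelope, was at 1.94, 1.8 and 1.95 CPM without MMS and 37.3, 35.6 and 41.3 CPM with MMS, ATG41 rose by 4.03 ± 0.15, and ATG8, the ubiquitin-like protein of the autophagosome, by 3.21 ± 0.20. Of 11 genes for vacuolar proteases and inhibitors 10 rose and 1 did not pass (median 1.32), led by PAI3, an inhibitor of proteinase A, at 3.86 ± 0.15, APE1, aminopeptidase I, at 3.79 ± 0.09 and PRB1, proteinase B, at 2.18 ± 0.11.

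Redox and detoxification genes were raised. Of 14 genes for thioredoxins and peroxiredoxins 13 rose and 1 fell (median 1.14). SRX1 (YKL086W), sulfiredoxin, was at 7.04, 5.84 and 6.77 CPM without MMS and 139, 196 and 197 CPM with MMS, and PRX1, the mitochondrial peroxiredoxin, rose by 2.89 ± 0.07, while TRX1 fell by 0.95 ± 0.09. Of 15 glutathione genes 10 rose, 2 fell and 3 did not pass (median 1.08, or 13 higher and 0 lower by library size). GTT2 (YLL060C), a glutathione transferase, was at 15.2, 16.3 and 17.1 CPM without MMS and 247, 286 and 292 CPM with MMS, ECM4 rose by 2.98 ± 0.09 and GTT1 by 2.53 ± 0.14. Of 6 genes for superoxide dismutases and catalases 4 rose and 2 did not pass (median 0.86), CCP1, cytochrome c peroxidase, rising by 1.83 ± 0.12. Of 12 genes for drug efflux and detoxification 9 rose, 1 fell and 2 did not pass (median 1.38 against 1.98 in the wild type). FLR1 (YBR008C), an efflux transporter, was at 37.1, 33 and 31.2 CPM without MMS and 320.3, 414 and 421 CPM with MMS, while PDR5, the main drug pump, fell by 1.28 ± 0.12. DDI2 (YNL335W) and DDI3, near-identical cyanamide hydratase genes that can share reads, rose by 5.25 ± 0.21 and 4.27 ± 0.18. Of 6 aryl-alcohol dehydrogenase genes, a family with close copies, all 6 rose (median 1.52) and AAD4 at 2.81 ± 0.12.

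Genes that answer DNA damage were mixed. Of 11 genes of ribonucleotide reductase, which makes the precursors of DNA, and its regulators 7 rose, 3 fell and 1 did not pass (median 1.07 against 1.36 in the wild type, or 8 higher and 2 lower by library size). RNR3 (YIL066C), the damage-induced large subunit, was at 12.3, 15.4 and 18.7 CPM without MMS and 100.5, 103 and 86.1 CPM with MMS, and in the wild type at 11.1, 10.5 and 8.73 CPM without MMS and 497, 501 and 412 CPM with MMS. HUG1 (YML058W-A), an inhibitor of the enzyme that is induced by damage, was at 37.1, 33.5 and 36.6 CPM without MMS and 195, 175 and 162 CPM with MMS, and in the wild type at 20.8, 22 and 17.8 CPM without MMS and 521, 624 and 525 CPM with MMS. Both genes thus rose in the deletion strain, but to a lower level than in the wild type. RNR2, a small subunit, rose by 1.52 ± 0.10 and RNR4 by 1.16 ± 0.10. RNR1 (YER070W), the large subunit of growing cells, was at 481, 535 and 625 CPM without MMS and 318, 319.8 and 267 CPM with MMS, a fall of 0.86 ± 0.12, while in the wild type it rose by 1.36 ± 0.12. The kinase gene DUN1 rose by 1.28 ± 0.13. SML1, an inhibitor of the enzyme, had a change of -0.64 ± 0.12, lost under library-size scaling, and DIF1, another regulator of the enzyme, fell by 0.88 ± 0.10.

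Repair genes rose in part, to be read against the 39.2% of all genes tested that rose and the 36.2% that fell. Of 11 genes of nucleotide excision repair 8 rose, 1 fell and 2 did not pass (median 1.21, or 10 higher and 0 lower by library size). RAD4 (YER162C), which recognises damaged DNA, was at 11.6, 11.6 and 11.7 CPM without MMS and 49.9, 50.9 and 56.2 CPM with MMS, RAD16 rose by 2.01 ± 0.10 and RAD7 by 1.53 ± 0.09. Of 11 recombination genes 7 rose and 4 did not pass (median 0.66), RAD55, a mediator of strand exchange, rising by 1.40 ± 0.13 and RAD59, of strand annealing, by 1.05 ± 0.18. Of 10 genes of base excision and alkylation repair 5 rose, 4 fell and 1 did not pass (median 0.57, or 6 higher and 2 lower by library size). MAG1 (YER142C), the glycosylase that removes methylated adenine and guanine, was at 7.43, 5.44 and 6.29 CPM without MMS and 25.1, 27.4 and 28.2 CPM with MMS, the glycosylase NTG1 rose by 2.08 ± 0.11, and TPA1, a dioxygenase, fell by 1.74 ± 0.07. Of 9 genes of postreplication repair 3 rose, 1 fell and 5 did not pass (median 0.13, or 6 higher and 0 lower by library size), RAD30, a lesion-bypass polymerase, rising by 0.57 ± 0.10. This list took 0.069% of counts in hel2_2 against 0.028% in hel2_1 and 0.022% in hel2_3. MMS2 was high in that lone library, with 22908 counts against 1991 and 1889 in its replicates. Of 13 checkpoint genes 3 rose, 4 fell and 6 did not pass (median 0.10), against 10 higher and 0 lower with library-size scaling (median 0.66). MRC1, a mediator at the replication fork, rose by 0.41 ± 0.13.

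Genes of chromosome duplication and the cell cycle fell. Of 10 histone genes all 10 fell (median -1.72). HTA2 (YBL003C), an H2A gene, was at 329, 290.4 and 313 CPM without MMS and 18.6, 15.4 and 16 CPM with MMS, and HTB2 (YBL002W), an H2B gene, at 771, 778 and 872 CPM without MMS and 46.2, 42.1 and 42.7 CPM with MMS. HHF2, for H4, fell by 2.93 ± 0.13, and HHT1, for H3, by 1.28 ± 0.15. These counts are of poly(A)-selected RNA, and the copies of each histone are close in sequence. Of 30 replication genes 5 rose, 19 fell and 6 did not pass (median -0.55), but 10 higher and 4 lower with library-size scaling (median 0.01). CDC6, the loader of the replicative helicase, fell by 1.75 ± 0.16, MCM7 of the helicase by 1.41 ± 0.07 and the polymerase gene POL1 by 1.29 ± 0.14, while PRI2, of primase, rose by 0.91 ± 0.14. Of 12 genes for cyclins and regulators of G1 and S phase 1 rose, 10 fell and 1 did not pass (median -1.30 against -0.39 in the wild type). CLN2 (YPL256C), a G1 cyclin, was at 107, 102 and 99 CPM without MMS and 17.3, 15.1 and 13.8 CPM with MMS, PCL1 (YNL289W), a cyclin of Pho85, at 26.2, 21.7 and 21.9 CPM without MMS and 3.98, 3.5 and 3.25 CPM with MMS, and CLN1 fell by 2.46 ± 0.16. For PCL1 the wild type level was 19.7, 23.1 and 21.7 CPM without MMS and 16, 20.8 and 22 CPM with MMS. Of 15 mitotic regulators 2 rose, 10 fell and 3 did not pass (median -1.02, or 4 higher and 10 lower by library size). CLB2 (YPR119W), the main mitotic cyclin, was at 32.7, 33.2 and 28.7 CPM without MMS and 3.29, 3.57 and 3.84 CPM with MMS, CLB1 fell by 2.37 ± 0.12 and the polo kinase gene CDC5 by 2.00 ± 0.11, while PDS1, securin, rose by 0.59 ± 0.12. Of 8 genes for separation of daughter cells 1 rose, 6 fell and 1 did not pass (median -1.23), EGT2 falling by 2.38 ± 0.10 and DSE2 by 1.78 ± 0.12 while DSE1 rose by 0.31 ± 0.09.

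Genes for the machinery of translation fell almost throughout. Cytosolic ribosomal protein genes took 23.3, 20.9 and 22.1% of counts without MMS and 4.24, 4.04 and 3.92% with it. Of 137 genes 1 rose and 136 fell (median -3.03 against -2.26 in the wild type). RPL15B (YMR121C) was the member that rose, at 34.1, 28.1 and 27.1 CPM without MMS and 40.8, 42.1 and 45 CPM with MMS, by 0.52 ± 0.14 (adjusted p = 0.00348), and in the wild type its change was -0.83 ± 0.14. RPS22A, for comparison, was at 3298, 3421 and 3856 CPM without MMS and 235, 217 and 205 CPM with MMS. Of 35 genes of the small subunit processome, which matures ribosomal RNA, 34 fell and 1 did not pass (median -1.98). NOP1 (YDL014W), fibrillarin, was at 1106, 1072 and 1189 CPM without MMS and 100.2, 102 and 91.1 CPM with MMS, RRP5 fell by 3.19 ± 0.11 and UTP20 by 3.09 ± 0.08. Of 38 assembly factors of the large subunit all 38 fell (median -2.28), the helicase HAS1 by 3.40 ± 0.13, the ATPase REA1 by 3.14 ± 0.14 and DBP3 by 3.08 ± 0.09.

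Genes of RNA polymerases, translation factors and tRNA charging enzymes joined this fall. Of 21 genes of RNA polymerases I and III 1 rose and 20 fell (median -1.87). RPA190 (YOR341W), the largest subunit of polymerase I, was at 532, 556 and 565 CPM without MMS and 59.4, 60.9 and 53.6 CPM with MMS, and RPA135 fell by 3.22 ± 0.10. MAF1, the repressor of polymerase III, was the member that rose, by 0.55 ± 0.11. Of 29 translation factors tested 28 fell and 1 did not pass (median -2.05), TEF4 (YKL081W), of elongation factor eEF1B, being at 2323, 2643 and 2604 CPM without MMS and 231, 225 and 211 CPM with MMS. TIF1, for the helicase eIF4A, fell by 2.90 ± 0.10, and YEF3, elongation factor eEF3, by 3.01 ± 0.11. Of 18 tRNA synthetase genes all 18 fell (median -1.52), among them SES1 for serine by 2.05 ± 0.14, GRS1 for glycine by 2.01 ± 0.09 and MES1 for methionine by 1.95 ± 0.09.

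Respiratory and mitochondrial genes differed by group. Of 35 nuclear genes of the respiratory chain 12 rose, 12 fell and 11 did not pass (median 0.04 against -0.35 in the wild type, or 22 higher and 5 lower by library size). CYC7 and CYC1 are given above, NDE2, an external NADH dehydrogenase, rose by 3.60 ± 0.24, and COX5B, a subunit form made at low oxygen, by 1.71 ± 0.12. Of 19 citrate cycle genes 16 rose, 1 fell and 2 did not pass (median 0.73). SDH2 and SDH4 of succinate dehydrogenase rose by 1.79 ± 0.10 and 1.69 ± 0.15, CIT1, citrate synthase, rose by 1.60 ± 0.11, and the fall of ACO1, aconitase, by 0.68 ± 0.11 was lost under library-size scaling. Of 66 mitochondrial ribosomal protein genes 5 rose, 34 fell and 27 did not pass (median -0.32), but 25 higher and 5 lower with library-size scaling (median 0.24). MRPL39 fell by 1.42 ± 0.15, MRPL19 by 1.06 ± 0.09 and MRP20 rose by 0.72 ± 0.09. Of 8 genes encoded in mitochondrial DNA, whose RNA is little caught by poly(A) selection, 2 were tested, and both fell, COX1 by 1.43 ± 0.36 and OLI1 by 0.85 ± 0.20, the latter call being lost under library-size scaling. COX1 held only 28, 13 and 24 counts without MMS and 13, 12 and 9 counts with MMS. All 8 genes together summed to 21.1 to 31.4 CPM without and 12.7 to 15 CPM with MMS. Of 10 genes of peroxisomal fatty acid oxidation 9 rose and 1 did not pass (median 1.07), PXA2, a subunit of a fatty acid importer, rising by 2.13 ± 0.15 and FOX2 by 1.50 ± 0.08.

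More genes of ergosterol synthesis and the cell wall fell than rose. Of 27 ergosterol genes 26 fell and 1 did not pass (median -0.92, or 4 higher and 17 lower by library size). ERG3 (YLR056W), the sterol desaturase, was at 1135, 1497 and 1358 CPM without MMS and 248, 256 and 238 CPM with MMS, ERG5 fell by 2.42 ± 0.12 and MVD1 by 2.38 ± 0.09. Of 28 cell wall genes 7 rose, 17 fell and 4 did not pass (median -1.02 against 0.18 in the wild type, or 11 higher and 16 lower by library size). SCW10 (YMR305C), a glucanase-like wall protein, was at 706, 878 and 799 CPM without MMS and 55, 58.3 and 53.6 CPM with MMS, and in the wild type at 946, 843 and 862 CPM without MMS and 587, 533 and 446 CPM with MMS. UTR2 (YEL040W), a chitin transglycosylase, was at 849, 1020 and 948 CPM without MMS and 65.2, 67.3 and 64.1 CPM with MMS. GAS1, a glucan-building enzyme, fell by 3.00 ± 0.14, CIS3 by 2.99 ± 0.13 and CWP2 by 2.54 ± 0.16, while PIR3 (YKL163W) was at 11.9, 13.7 and 13.4 CPM without MMS and 132, 122 and 131 CPM with MMS, and SED1, a major protein of the wall in stationary phase, rose by 1.72 ± 0.16. CCW12 and PMA1, the plasma membrane proton pump, both among the genes with the most counts, fell by 1.21 ± 0.16 and 1.98 ± 0.17.

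The remaining lists were small or mixed. Of 15 phosphate genes 4 rose, 7 fell and 4 did not pass (median -0.17), against 8 higher and 2 lower with library-size scaling (median 0.38). PHO3 (YBR092C), a thiamine-repressed acid phosphatase, was at 465, 539 and 495 CPM without MMS and 38.5, 38.2 and 34.2 CPM with MMS, PHM8, a nucleotidase, rose by 2.37 ± 0.08 and PHO89, a sodium-phosphate cotransporter, by 2.00 ± 0.17. Of 23 iron genes 13 rose, 7 fell and 3 did not pass (median 0.39), SMF3, a vacuolar iron exporter, rising by 1.42 ± 0.11 and FIT1, a wall mannoprotein, falling by 1.23 ± 0.10. Of 5 zinc genes 1 rose, 1 fell and 3 did not pass (median -0.18), against 4 higher and 0 lower with library-size scaling (median 0.39). Of 16 thiamine genes 10 rose, 2 fell and 4 did not pass (median 0.75, or 15 higher and 0 lower by library size), THI6 rising by 1.34 ± 0.07. Of 17 genes of a-cell mating 6 rose, 9 fell and 2 did not pass (median -0.35), but 9 higher and 2 lower with library-size scaling (median 0.21). BAR1, the protease that degrades alpha factor, fell by 1.85 ± 0.08, the pheromone response factor STE12 fell by 1.09 ± 0.07 and ASG7 rose by 1.11 ± 0.14. Of 4 alpha-cell genes 2 rose and 2 did not pass (median 0.45), SAG1 rising by 0.96 ± 0.10, and of 8 silencing genes 3 rose, 2 fell and 3 did not pass (median 0.04, or 5 higher and 1 lower by library size), SIR1 rising by 1.55 ± 0.15 and HST3 falling by 1.69 ± 0.09. Of 12 meiosis genes 8 rose, 1 fell and 3 did not pass (median 0.74), IME2 rising by 1.33 ± 0.11 and DMC1 by 1.25 ± 0.12. Subtelomeric families, whose copies share reads, came last. Of 11 COS genes 8 rose, 1 fell and 2 did not pass (median 0.88, or 9 higher and 0 lower by library size) and COS1 at 1.29 ± 0.17, and of 21 seripauperin genes tested 6 rose, 4 fell and 11 did not pass (median 0.17, or 10 higher and 1 lower by library size), PAU15 rising by 2.37 ± 0.22.

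**Figure D4:**
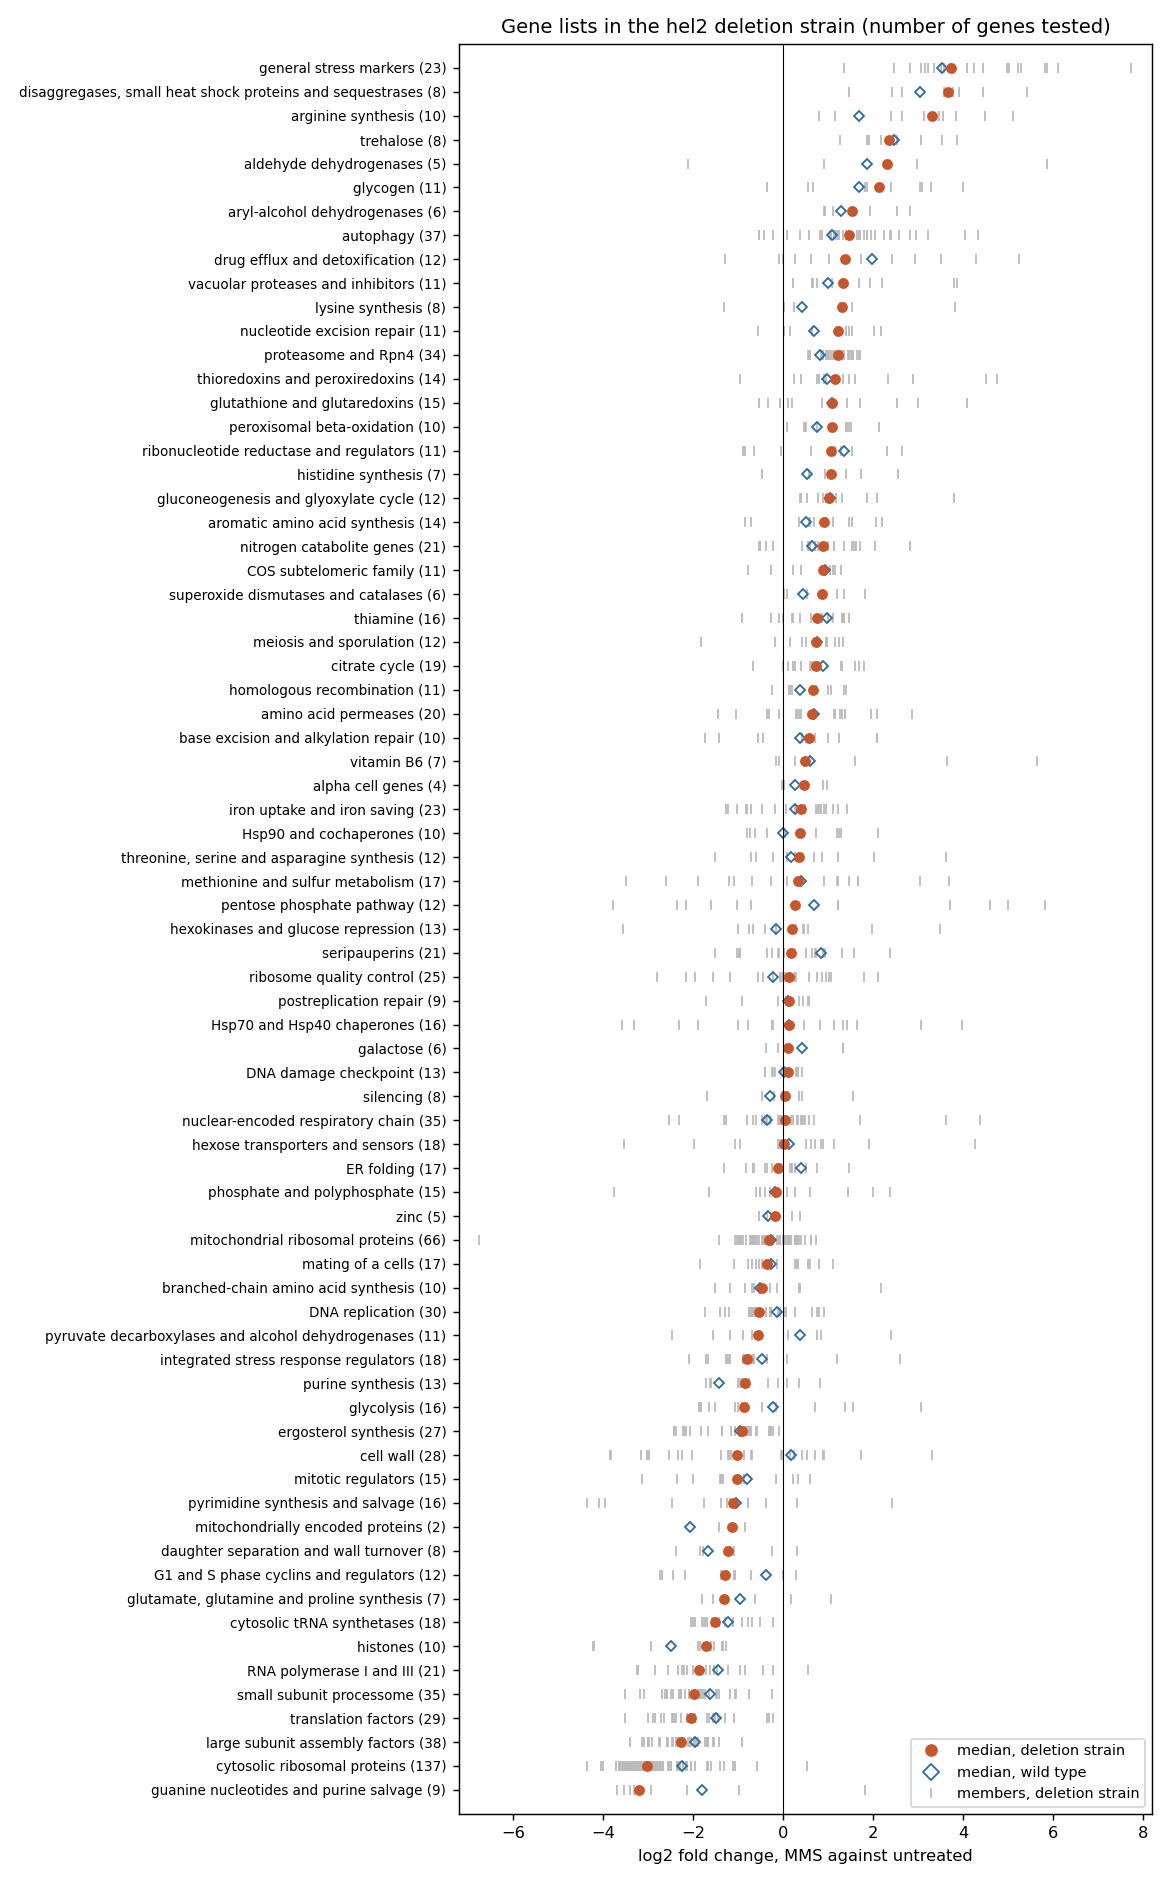
Log2 fold change with MMS for the 73 gene lists, ordered by the median in the hel2 deletion strain (orange point), with the wild type median (blue diamond) and each member in the deletion strain (grey tick). Medians run from -3.20 for guanine nucleotides and purine salvage to 3.73 for the general stress markers, and library-size scaling moves the deletion medians up by about 0.55. The tick of the mitochondrial ribosomal protein list near -6.8 is RSM26, which rests on a lone library.

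By kind of gene, 463 of 943 protein-coding genes described as of unknown function rose and 213 fell (median 0.35), against 1937 and 1916 of 4881 other protein-coding genes (median 0.03). Of 75 small nucleolar RNAs 3 rose and 56 fell (median -1.50). Of 49 transposable elements 4 rose and 33 fell (median -0.62), or 4 and 8 with library-size scaling. Of 131 tRNA genes 20 rose and 48 fell, but 34 were higher and 23 lower under library-size scaling. Poly(A) selection leaves most of these noncoding RNAs out, so their values describe the part that was caught.

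The difference between the MMS effects of the strains, deletion minus wild type, was tested in the same fit. It passed for 2587 genes, or 40.0% of those tested, with 1200 positive (18.6%) and 1387 negative (21.5%), or 1491 and 748 under library-size scaling. At 2-fold or more 634 genes passed, or 9.81%. In the wild type itself 4515 genes passed for MMS, or 69.9%. A positive difference means a larger rise or a smaller fall in the deletion strain, or a rise there against a fall in the wild type.

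Several lists of amino acid synthesis had mostly positive differences, and others were mixed. The strains also differed at LEU2, a gene of leucine synthesis. Its mean level was 560.5 CPM without and 317.7 CPM with MMS in the deletion strain, against 0.334 and 0.568 CPM in the wild type. The share of this second difference in the values below cannot be told apart from that of HEL2 and was not tested. For all 10 arginine genes the difference was positive and passed, with 1.81 ± 0.12 for ARG3, 1.98 ± 0.13 for ARG56 and 0.91 ± 0.12 for ARG2. It was positive for 7 and negative for 0 of 7 histidine genes and positive for 7 and negative for 0 of 8 lysine genes, and library-size scaling gave 7 positive and 0 negative and 8 positive and 0 negative. SER3 had a difference of 2.08 ± 0.09 (adjusted p = 2.96e-08) and STR2 one of 1.91 ± 0.16. Aromatic genes had 7 positive and 0 negative of 14, and branched-chain genes 3 positive and 1 negative of 10. Those for threonine, serine and asparagine had 5 positive and 2 negative of 12, or 7 positive and 0 negative under library-size scaling. The methionine and sulfur list had 8 positive and 6 negative of 17, with CYS3 at -1.35 ± 0.19 and SAM1 at -1.17 ± 0.16, and the list for glutamate, glutamine and proline 2 positive and 3 negative of 7, or 2 positive and 1 negative under library-size scaling. In the wild type SER3 was at 34.1, 33.7 and 34.9 CPM without MMS and 96.9, 95.6 and 108 CPM with MMS, with a smaller gap between treated and untreated libraries. Respiratory chain genes had 18 positive and 1 negative differences, with QCR7 of complex III at 1.23 ± 0.22, and proteasome genes 17 and 0. Among single genes of higher level, the largest positive values after SNZ1 were those of ARO5, CLD1, MTG1, TKL2 and HBT1. HBT1 (YDL223C), a protein of the mating projection, was at 33.9, 36.1 and 33.7 CPM without MMS and 507, 451 and 459 CPM with MMS, and in the wild type at 57.3, 29.8 and 31.5 CPM without MMS and 113, 73.9 and 99.6 CPM with MMS, with a difference of 2.50 ± 0.31. ARO5 and CLD1 rest in part on lone libraries. CLD1 (YGR110W), a phospholipase for cardiolipin, was at 9.14, 10.3 and 10.1 CPM without MMS and 53.7, 53.3 and 152 CPM with MMS, and in the wild type at 8.54, 8.8 and 41.9 CPM without MMS and 16.6, 14.6 and 16.3 CPM with MMS, and its difference was 3.45 ± 0.94, or 2.26 without WT_3. ARO5 (YGL117W) was at 25.8, 8.9 and 8.28 CPM without MMS and 183, 176 and 262 CPM with MMS, and in the wild type at 23.1, 6.58 and 66.4 CPM without MMS and 41.3, 24.7 and 29.7 CPM with MMS, so its untreated libraries spread widely. The difference for ARO5 was 3.86 ± 1.08 (adjusted p = 0.0208), or 2.75 without WT_3, and it did not pass without hel2_2 (adjusted p = 0.0502) or hel2_3 (adjusted p = 0.0511).

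Lists with mostly negative differences were found in glycolysis, the wall, G1 and S phase, part of nucleotide supply, ribosomal proteins and translation factors. Of 16 glycolysis genes 14 had a negative difference and none a positive one that passed, also under library-size scaling. HXK1 (YFR053C) was at 95.8, 82.7 and 102 CPM without MMS and 379.5, 376 and 349 CPM with MMS, and in the wild type at 23.8, 28.5 and 26.9 CPM without MMS and 940.1, 746 and 788 CPM with MMS, a difference of -2.99 ± 0.15 (adjusted p = 9.48e-08). GLK1 had a difference of -1.94 ± 0.28 and HXT7, a transporter with a near copy in HXT6, one of -2.30 ± 0.39. For GLK1 the untreated levels already differed, with means of 312.6 CPM in the deletion strain and 98.7 CPM in the wild type. Its treated means were 3470 CPM and 4208 CPM (SD 60.3 and 1430). Of 28 cell wall genes 22 had a negative difference and 3 a positive one. CWP1 (YKL096W) was at 283, 306 and 358 CPM without MMS and 423, 349.5 and 340.3 CPM with MMS, and in the wild type at 197, 188 and 175 CPM without MMS and 2197, 1459 and 1379 CPM with MMS. TIR1 (YER011W) was at 162, 189 and 218 CPM without MMS and 21, 26.4 and 22.1 CPM with MMS, and in the wild type at 191, 146 and 123 CPM without MMS and 175, 161 and 120.2 CPM with MMS. Both wall mannoproteins were thus lower in each treated deletion library than in any treated wild type library. TOS6 (YNL300W), another wall protein, was at 244, 243 and 275 CPM without MMS and 28.5, 29.6 and 22.5 CPM with MMS, while in the wild type it was at 279, 264 and 231 CPM without MMS and 321, 265 and 211 CPM with MMS, a difference of -3.28 ± 0.21. Of 12 G1 and S phase genes 10 had a negative difference, PCL1 with -2.57 ± 0.19, and 1, SIC1, a positive one, with 1.28 ± 0.17. RNR3 had a difference of -2.90 ± 0.20 (adjusted p = 9.83e-07), HUG1 one of -2.47 ± 0.14 and RNR1 one of -2.22 ± 0.17. Of 11 genes in that list 7 had a negative and none a positive difference, or 1 positive and 6 negative under library-size scaling. Guanine nucleotide genes had 0 positive and 7 negative of 9. Pyrimidine genes had 2 positive and 10 negative of 16, or 3 positive and 7 negative under library-size scaling. De novo purine genes went the other way, with 9 positive and 0 negative of 13, ADE2 having a difference of 1.33 ± 0.08. For cytosolic ribosomal proteins the difference was positive for 3 and negative for 93 of 137, or 2 positive and 65 negative under library-size scaling. Translation factors had 0 positive and 19 negative of 29, or 0 positive and 12 negative under library-size scaling. The small subunit processome had 1 positive and 18 negative of 35, or 0 positive and 11 negative under library-size scaling. For ER folding it was positive for 0 and negative for 10 of 17, or 0 positive and 4 negative under library-size scaling.

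**Figure D5:**
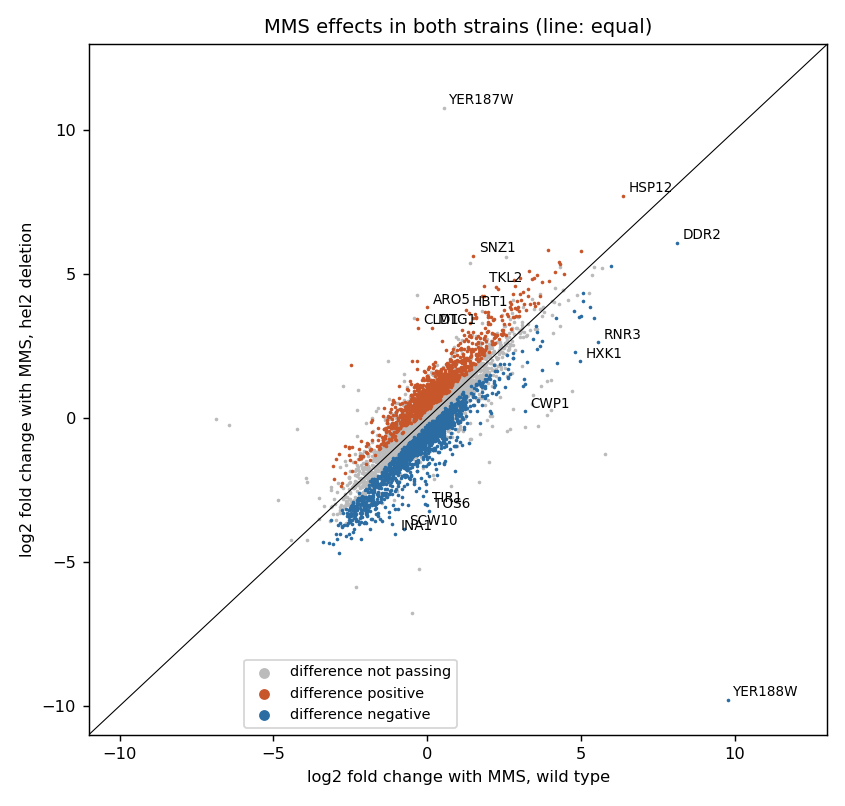
Log2 fold change with MMS in the hel2 deletion strain (vertical axis) against that in the wild type (horizontal axis), for 6463 genes, with a line where both are equal. Genes whose difference passed are orange above the line and blue below it, SNZ1 lying at 5.65 against 1.50 and HXK1 at 1.98 against 4.97. YER187W and YER188W rest on lone libraries.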

How the data were processed

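Poly(A) RNA of 12 yeast cultures was sequenced. Values are the counts of reads for each gene, as deposited by the authors in a table that covers every library. Per the submitters' processing notes, STAR 2.5.1a, featureCounts 1.4.6-p5 from Subread, and Salmon are named. Genome build, strand setting and the handling of multi-mapping reads are not stated in the labels or headers, so counts of close paralogs and overlapping genes carry that uncertainty. The table held 7230 lines for 7109 identifiers, and 97 identifiers repeated with equal counts were kept a single time. Symbols came from RefSeq R64 for 6042 identifiers, used for names and neighbours only. Library totals ran from 36472686 to 53638964 counts.

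Counts were scaled by TMM, filtered with filterByExpr, and tested with the robust quasi-likelihood test of edgeR 4.0.16 in R 4.3.3, with 4 group means over all 12 libraries and Benjamini-Hochberg adjusted p over all 6463 genes. The SE of a log2 change is its size over the root of F. Levels in CPM use the TMM-scaled library size and are not per gene length. Replicates are labelled biological, and nothing says how far the cultures were separate. The p-values therefore set each change against the spread between these samples only. The procedure was tested on simulated data with known changes in few genes of the deletion strain, balanced in direction. Such data cannot show how the scaling behaves under a response as broad as this one.

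The comparison, the 73 gene lists with 1277 genes, and the tests were chosen with earlier results of these data known. Genes were named by rule: HEL2, GCN4, GCN2 and LEU2, the 15 largest rises and falls and the 6 largest differences in each direction at a mean log2 CPM of at least 4, per list the 3 largest changes and the largest against the majority, and the 10 genes with the most counts. Other genes, among them the 12 pairs, the library-specific genes and further members of lists, were named after their values were seen. Symbols that list patterns had caught by mistake were removed after the files were seen. Alternatives were RLE and library-size scaling, DESeq2 1.42.0, limma-voom (limma 3.58.1), 2 other filters, a replicate block, only the libraries compared, and leaving out each library. A planned description of promoter motifs was not done, and no sequence is given. Values of a few single genes are not reported here.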

Additional observations from a re-analysis of the deposited data

Results flagged for a closer look

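Each gene here is named in the results and had a difference of MMS effects, deletion minus wild type, that passed at an adjusted p under 0.05 (edgeR quasi-likelihood test, 3 libraries in each of 4 groups) with a size of at least 2-fold. Values in brackets are log2 differences, and no explanation is weighed for any of them. Over all genes tested, 9.81% met the same limits.

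Some of these differences rest on few libraries or lose their call. YER188W had -19.56 ± 6.03, with 1 high library in each strain, and -9.94 without WT_MMS_1. ARO5 had 3.86 ± 1.08 and CLD1 3.45 ± 0.94, each with a high untreated wild type library. COX1 had 1.53 ± 0.54 (adjusted p = 0.0374) and NDE2 1.01 ± 0.32 (adjusted p = 0.0218). The call for COX1, a gene of low counts, was lost with DESeq2 and with the replicate block. RPS26B had -1.06 ± 0.30 (adjusted p = 0.0141), a call that library-size scaling loses. LEU2 had -1.53 ± 0.56 (adjusted p = 0.0485), while the wild type libraries held under 1 CPM.

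Among positive differences, a size of at least 3 on the log2 scale was found for SNZ1 (4.15). Sizes from 2 to under 3 were those of MTG1 (2.98), TKL2 (2.77), HBT1 (2.50), HXT5 (2.47), PHO89 (2.35), SNO1 (2.30) and SER3 (2.07). Sizes from 1.5 to under 2 were those of ARG56 (1.98), ALD3 (1.93), PIR3 (1.91), STR2 (1.91), STR3 (1.82), ARG3 (1.81), CPA1 (1.57), HIS5 (1.55), ATG39 (1.54) and AGP1 (1.50). Sizes from 1 to under 1.5 were those of DSE1 (1.49), NQM1 (1.43), PHM8 (1.42), RQT4 (1.39), ATG41 (1.36), RPL15B (1.35), HSP12 (1.35), ADE2 (1.33), ARG8 (1.32), RAD4 (1.31), CTT1 (1.30), SIC1 (1.28), ARG7 (1.27), IDP2 (1.27), CYC7 (1.27), HHT1 (1.25), ARO3 (1.24), QCR7 (1.23), HIS4 (1.22), ORT1 (1.21), ARG1 (1.20), HSP42 (1.12), SIR1 (1.08), SIP4 (1.07), HIS7 (1.06), STI1 (1.03), DCS2 (1.03), LYS20 (1.02) and PDX3 (1.01).

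Among negative differences, a size of at least 3 was found for TOS6 (-3.28), SCW10 (-3.08) and TIR1 (-3.02). Sizes from 2 to under 3 on the negative side were those of HXK1 (-2.99), INA1 (-2.96), CWP1 (-2.94), CIS3 (-2.93), RNR3 (-2.90), PCL1 (-2.57), HUG1 (-2.47), HXT7 (-2.30), RNR1 (-2.22), CWP2 (-2.18), GAS1 (-2.16), HXK2 (-2.10), ANB1 (-2.05) and DDR2 (-2.02). DDR2 was higher in the deletion strain both without MMS (means of 31.6 against 3.45 CPM) and with it (2155 against 958.7 CPM). Sizes from 1.5 to under 2 on the negative side were those of HXT6 (-1.98), UTR2 (-1.98), GLK1 (-1.94), CLN2 (-1.93), ADH1 (-1.93), TDH2 (-1.89), IMD2 (-1.81), TDH1 (-1.77), NOP1 (-1.72), OLE1 (-1.69), TEF4 (-1.69), SSB2 (-1.65), PDC1 (-1.63), GND1 (-1.59), ALD6 (-1.57), FUR1 (-1.55) and SSB1 (-1.55). Sizes from 1 to under 1.5 on the negative side were those of IMD4 (-1.48), RPS22A (-1.46), URA7 (-1.44), CLN1 (-1.43), TSL1 (-1.43), FLR1 (-1.43), RPA135 (-1.37), CYS3 (-1.35), ASC1 (-1.30), ENO2 (-1.30), AGP2 (-1.29), PMA1 (-1.29), URA1 (-1.28), HTB2 (-1.27), TIF1 (-1.27), RPA190 (-1.27), CLB1 (-1.22), HXT4 (-1.22), SEC61 (-1.20), UTP20 (-1.19), SAM1 (-1.17), RNR2 (-1.16), GPM1 (-1.16), URA5 (-1.14), RPL9A (-1.14), CCW12 (-1.11), YEF3 (-1.10), HAS1 (-1.05), TKL1 (-1.02), HXT2 (-1.02) and RKI1 (-1.01).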

How the results depend on the processing

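Scaling by library size alone moved the most results. It gave 1275 lower genes for MMS in the deletion strain against 2339, and 748 negative differences against 1387. With genes of a mean log2 CPM of at least 4 alone, 421 differences passed at 2-fold against 634, from fewer genes tested. Other counts stayed within 1.5 times under RLE scaling, DESeq2, limma-voom, no filter, the higher filter and only the deletion libraries, which can give no difference between strains. An alternative chosen after seeing the data, without the 80 genes high in 1 library, gave 4881 genes for MMS in the deletion strain. Leaving out each library in turn gave 4614 to 5105 genes for MMS in the deletion strain (2409 to 2670 higher, 2205 to 2435 lower, 2364 to 2407 at 2-fold) and 4219 to 4514 in the wild type. The difference then passed for 2193 to 2828 genes, with 970 to 1315 positive, 1223 to 1513 negative and 553 to 735 at 2-fold. Among the genes named in the results, library-size scaling turned the sign of the MMS change of HIS6 (0.09), GAC1 (0.20), SNZ2 (0.40), TDH2 (0.40) and SNZ3 (0.45, which passed on neither scaling), and the cause is the shift of 0.55 in the median that it brings. YER187W ran from -0.64, without hel2_MMS_1, to 11.38 as single libraries were left out, and its difference from -1.16 to 10.85. Over the same genes and all alternatives, and with no change of sign, 26 values for MMS in the deletion strain lost their call and 10 gained one, while 170 differences lost it and 61 gained one. A replicate block was added since the labels number replicates alike. Treated and untreated deletion libraries of the same number correlated at 0.03, -0.04 and -0.10 in their deviations from the group mean. Between other groups the values reached 0.242 (WT with WT_MMS) and -0.382 (WT_MMS with hel2), both for replicate 1. With 3 libraries per group these values cannot decide whether a number pairs libraries, and the labels do not say. With the replicate block 4799 genes passed for MMS in the deletion strain (2502 higher, 2297 lower, 2381 at 2-fold), 4392 in the wild type, and 2378 for the difference (1083 positive, 1295 negative, 624 at 2-fold). For low genes, and for those high in 1 library, 3 libraries per group limit what can be told.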
